A study of Mus musculus with 9 samples.

Results

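The nuclear genes for the subunits of oxidative phosphorylation were described in sorted mouse lung cells. Members were taken by gene name: the Nduf genes numbered in the a, b, c, s and v series, Sdha to Sdhd, the Uqcr genes, the Cox4 to Cox8 genes, Cycs and the Atp5 genes, without entries marked as pseudogenes by -ps. This gave 89 genes of the 54449 in the table: 38 of complex I, 4 of complex II, 8 of complex III, cytochrome c, 21 of complex IV and 17 of complex V. These counts include Ndufa11b, Ndufb4c and Ndufs6b under complex I and Cox6c2 under complex IV. Those genes are annotated as processed pseudogenes, were at 0 in every library and were not tested. Atp5o was listed under 2 identifiers and was counted once, by the one with reads. That identifier spans a region that overlaps other annotation (chromosome 16, 91684398 to 91926982), so its counts are uncertain. Of 8 entries left out for -ps, Ndufb1-ps was the only one above 1 normalized count in any library, with 2208, 614 and 896 in the Siglec-F high libraries, 460, 894 and 328 in the Siglec-F int libraries, and 674, 1357 and 1417 in the naive libraries. Ndufa4 and Ndufa4l2 were placed in complex IV, where the Ndufa4 protein is known to reside despite its name.

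RNA came from 9 libraries, 3 per group, labelled as lung eosinophils (granulocytes of type 2 immunity) of C57BL/6 mice, and each library pooled 3 to 4 mice. The Siglec-F high and Siglec-F int libraries came from mice given PyMT tumour cells, which come from a mouse mammary tumour model, through the tail vein, and the fractions differ in surface Siglec-F, a lectin of eosinophils and some macrophages. The naive libraries came from mice given saline alone, and the injected volume was 200 µl. The comparisons ask how cells sorted as eosinophils from injected mice differ from those of naive mice, and how the Siglec-F high and int fractions differ from each other.

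Oxidative phosphorylation passes electrons from NADH (complex I) and succinate (complex II) through complex III and cytochrome c to oxygen at complex IV, and ATP synthase (complex V) uses the proton gradient so built to make ATP. Most subunits are encoded in the nucleus and imported. A few, including cytochrome b of complex III and the catalytic core of complex IV, are encoded in the mitochondrial genome, so that assembly draws on both genomes. Complex II is built from nuclear genes only. Granulocytes are commonly described as relying largely on glycolysis, and eosinophils as keeping working mitochondria beside it.

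Reads recovered from the deposited values numbered 4941900, 7171065 and 5148291 in the Siglec-F high libraries, 7517513, 11566727 and 12495629 in the Siglec-F int libraries, and 4453385, 2205947 and 5529406 in the naive libraries. The defining genes of eosinophils were low or at 0 in most libraries, against the labels. Siglecf, the gene of the sorting marker, was at 17.6, 3.58 and 14.5 normalized counts in the Siglec-F high libraries, at 6.98, 20.2 and 11.1 in the Siglec-F int libraries, and at 12.6, 31.3 and 4.18 in the naive libraries. Ccr3, the eotaxin receptor, was at 24.1, 0 and 5.97 in Siglec-F high, at 0, 3.37 and 7.91 in Siglec-F int, and at 0 in all 3 naive libraries, as were Prg3 and Cebpe. Epx (eosinophil peroxidase) did not exceed 17.1 in any library. Prg2 (major basic protein) was at 6.58, 0.6 and 380 in Siglec-F high, at 3.76, 8.0 and 106 in Siglec-F int, and at 0, 0 and 15.0 in naive libraries. The 12 eosinophil markers summed to 518 to 1156 in Siglec-F high, to 194 to 420 in Siglec-F int and to 268 to 742 in naive libraries. Of these 12 markers 6 were tested, and limma called 0 of them in each comparison with naive (0 at an unadjusted p under 0.05 and 0 called by edgeR and DESeq2). All 12 pigment cell markers fell in both comparisons with naive, and their summed level ran from 212 to 1126 in the Siglec-F high libraries, from 395 to 765 in the Siglec-F int libraries and from 66118 to 74457 in the naive libraries. None of the 12 was at 0 in every library of a group. Of 12 mesenchymal markers 9 rose in Siglec-F high and 7 in Siglec-F int, with summed levels of 26667 to 38503 in Siglec-F high, 11147 to 27279 in Siglec-F int and 6742 to 8476 in naive libraries. Of 12 monocyte and macrophage markers 6 and 7 rose, with sums of 17068 to 19443 in Siglec-F high, 14481 to 44793 in Siglec-F int and 9205 to 12702 in naive libraries. Of other cell types, 1 of 10 tested epithelial markers fell in Siglec-F high and 1 of 8 neutrophil markers fell in each comparison. Over all genes tested, 16.6% fell and 14.7% rose in Siglec-F high, and 10.3% fell and 12% rose in Siglec-F int. The epithelial and neutrophil counts lie near those shares. The groups are therefore called by their labels only, and the part of these other cell types in every comparison with naive below was not tested. In bulk RNA, fewer cells of a type and less RNA per cell cannot be told apart.

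The nuclear subunit genes were lower in both fractions from injected mice than in naive libraries, across all complexes. They took 1.11, 1.44 and 1.37% of the reads of the Siglec-F high libraries, 1.13, 1.28 and 1.05% of those of the Siglec-F int libraries, and 2.59, 2.55 and 3.24% of those of the naive libraries. Every share in either fraction thus lay below every naive share. The 95% Wilson intervals of these shares, which cover counting error only, ran from 1.433 to 1.451% for the highest share in Siglec-F high, from 1.275 to 1.288% for the highest in Siglec-F int, and from 2.525 to 2.566% for the lowest in naive libraries. The summed normalized counts of all members were 60729 ± 835 in Siglec-F high, 49865 ± 11062 in Siglec-F int and 142760 ± 9213 in naive libraries (SD, n = 3 each).

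By complex, the summed level in Siglec-F high was 0.486 of the naive mean for complex I, 0.361 for complex II, 0.375 for complex III, 0.340 for cytochrome c, 0.446 for complex IV and 0.394 for complex V. In Siglec-F int the same ratios to naive were 0.368, 0.341, 0.297, 0.244, 0.365 and 0.348. Complex I summed to 19146, 16773 and 16887 in the Siglec-F high libraries, to 12439, 16112 and 11475 in the Siglec-F int libraries, and to 33426, 38271 and 37064 in the naive libraries. Complex V summed to 18666, 22095 and 20790 in Siglec-F high, to 16480, 22861 and 15122 in Siglec-F int, and to 47370, 55245 and 53677 in naive libraries. For none of the 6 sums did a library of either fraction reach the lowest naive library, and within the int group library 2 was the highest for all 6.

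**Figure D1:**
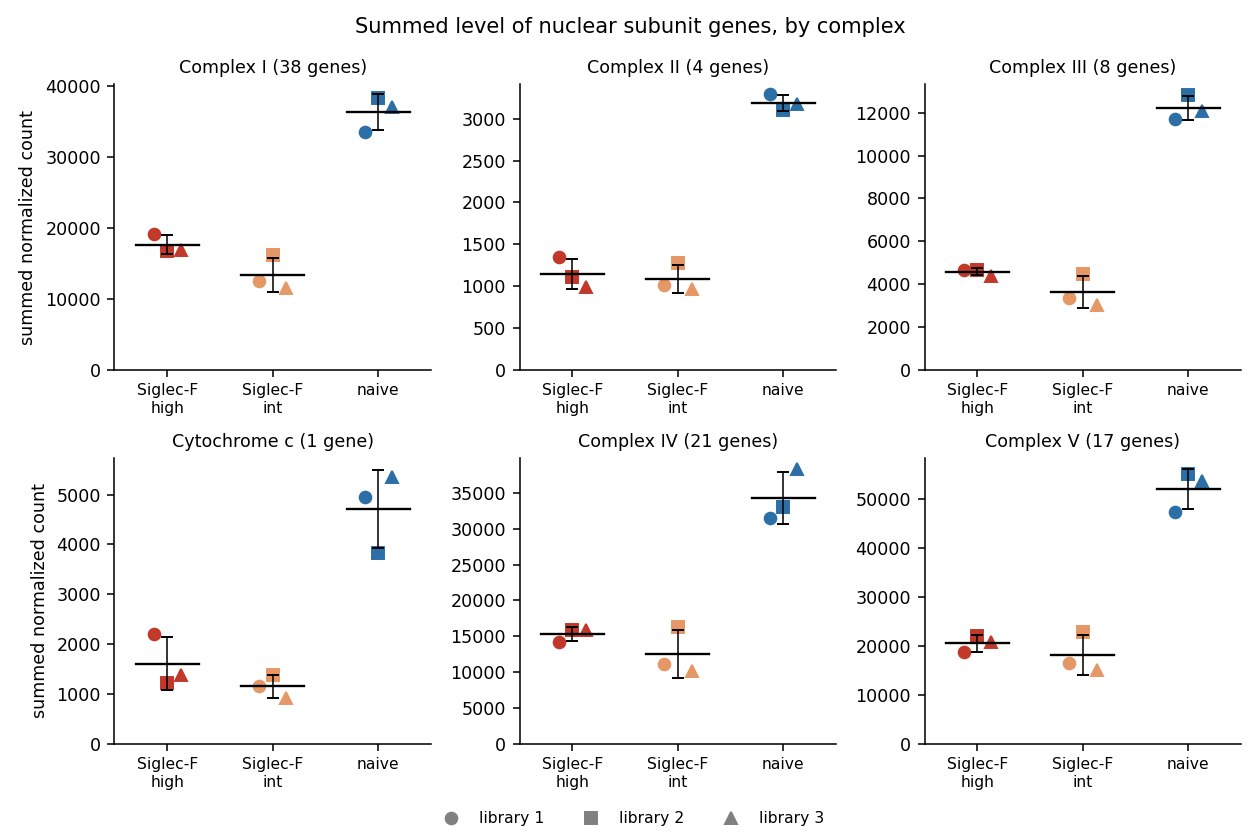
Summed normalized counts of the nuclear subunit genes of each complex (y axis) in the Siglec-F high, Siglec-F int and naive libraries (x axis, n = 3 each); points are libraries, long bars group means and error bars SD. In every panel the 3 naive libraries sit above all 6 others, for example at 33426 to 38271 against at most 19146 for complex I.

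Of the 89 members 82 reached a mean of 5 normalized counts over the 9 libraries and were tested gene by gene. In Siglec-F high against naive 53 fell, 0 rose and 29 were not called by limma at an adjusted p under 0.05, where 16.6% of all genes tested fell and 14.7% rose. Beside the count of 0 rises, 0 members rose at an unadjusted p under 0.05 and 0 by edgeR or DESeq2. The median log2 fold change over the tested members was -1.37, beside -0.11 over all genes tested, and in 63 of 82 members every Siglec-F high library lay below every naive one (26.3% of all genes). In Siglec-F int against naive 56 fell and 0 rose, where 10.3% of all genes fell and 12% rose, again with 0 rises at an unadjusted p under 0.05 and 0 by edgeR or DESeq2. There the median was -1.51, beside -0.02 over all genes, and in 74 of 82 members the int libraries all lay below the naive ones (27.6% of all genes). Both comparisons share the 3 naive libraries, so they are not independent, and 45 members fell in both. The counts moved most with the library left out and with GC and length effects: in Siglec-F high 34 fell without naive library 3, and 34 fell with GC and length effects taken out. That removal moved the members' median to -0.88 in Siglec-F high and -1.05 in Siglec-F int. In Siglec-F high it kept 28 of the 53 calls, lost those of Ndufs3, Uqcr10, Cox4i1, Cox6a1, Cox6b1, Cox7a2, Cox8a, Ndufv1 and Atp5g2 among others, and added Atp5f1, Atp5l, Cox7b, Cox7c, Ndufs1 and Uqcrc2. In Siglec-F int 44 fell under it, with 40 of the 56 calls kept, those of Sdhd, Ndufa12, Ndufc2, Atp5j, Cox6a1, Cox6b1 and Cox8a among the 16 lost, and Atp5f1, Atp5l, Ndufs1 and Ndufs4 added. In Siglec-F int 36 fell without int library 3 and 71 without Siglec-F high library 1, which that comparison uses only for the shared spread. The falls over all 13642 genes moved as well. In Siglec-F high they went from 2267 to 1341 without naive library 3 and to 1644 with GC and length effects taken out. In Siglec-F int they went from 1402 to 650 without int library 3 and to 2760 without Siglec-F high library 1. With GC and length effects taken out they were 1449 there.

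**Figure D2:**
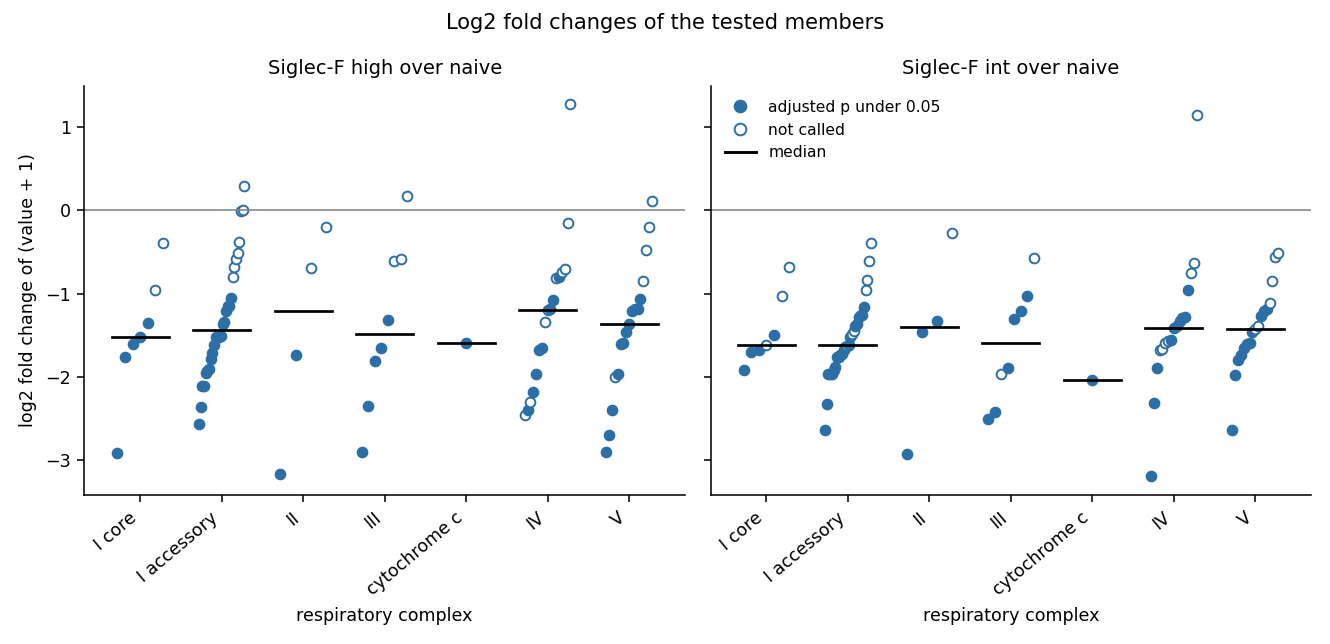
Log2 fold change of value + 1 (y axis) for each tested member by complex (x axis), in Siglec-F high over naive (left) and Siglec-F int over naive (right); filled points have an adjusted p under 0.05, open points were not called, and bars are medians. The medians lie between -1.19 and -1.59 on the left and between -1.40 and -2.04 on the right, and no filled point lies above 0.

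Complex I takes electrons from NADH through a flavin and a chain of iron-sulfur clusters held by its core subunits. Of its 7 nuclear core genes 5 fell in Siglec-F high and 4 in Siglec-F int. Ndufv2, an iron-sulfur subunit of the NADH-binding arm (chromosome 17, 66078638 to 66101559), had 220, 465 and 431 normalized counts in Siglec-F high, 393, 499 and 391 in Siglec-F int, and 1262, 1261 and 1098 in naive libraries. All 6 libraries of the 2 fractions lay below the naive ones, at -1.76 ± 0.32 (log2 fold change ± SE, adjusted p = 0.00358) in Siglec-F high and -1.5 ± 0.32 (adjusted p = 0.00889) in Siglec-F int. Ndufs3, which helps form the module that links this arm to the membrane, fell in both (log2 fold changes of -1.60 in Siglec-F high and -1.70 in Siglec-F int). Ndufs1, the largest of the nuclear core subunits, was not called: it averaged 908 ± 95.7 in Siglec-F high, 743 ± 9.11 in Siglec-F int and 1208 ± 265 in naive libraries, with values of -0.39 ± 0.26 (adjusted p = 0.257) and -0.68 ± 0.26 (adjusted p = 0.0843). Ndufs7, an iron-sulfur subunit near the quinone site, stood at -0.95 (adjusted p = 0.0814) and -1.03 (adjusted p = 0.0792).

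Accessory subunits surround that core and are needed for its assembly and stability. Of 28 tested accessory genes 20 fell in Siglec-F high and 21 in Siglec-F int. Ndufv3 (chromosome 17, 31520115 to 31531331), a peripheral subunit of the NADH-binding arm, had 562, 459 and 415 normalized counts in Siglec-F high, 343, 490 and 294 in Siglec-F int, and 1497, 2131 and 1945 in naive libraries. Its value was -1.95 ± 0.29 in Siglec-F high (adjusted p = 0.00135) and -2.32 ± 0.29 in Siglec-F int (adjusted p = 0.000821). Ndufa9, a subunit at the junction of the arms (chromosome 6, 126821721 to 126849136), had 52.6, 144 and 126 in Siglec-F high, 152, 164 and 149 in Siglec-F int, and 544, 643 and 583 in naive libraries. Ndufb2, a membrane arm subunit (chromosome 6, 39592574 to 39603382), had 43.9, 48.3 and 52.9 in Siglec-F high, 35.4, 37.9 and 27.2 in Siglec-F int, and 239, 195 and 203 in naive libraries. For both genes all libraries of both fractions lay below the naive ones. Ndufa9 fell in both (-2.56 in Siglec-F high and -1.92 in Siglec-F int), and so did Ndufb2 (-2.11 and -2.64). Ndufa12 and Ndufc2, with the highest means among accessory genes not called in Siglec-F high, were called in Siglec-F int only. Their values were -0.68 ± 0.26 (adjusted p = 0.0663) and -0.59 ± 0.32 (adjusted p = 0.176) in Siglec-F high, against -1.26 ± 0.26 (adjusted p = 0.00735) and -1.26 ± 0.32 (adjusted p = 0.0193) in Siglec-F int. That the fractions differ for them was not shown, as the direct comparison had unadjusted p-values of 0.047 and 0.062 and adjusted p = 0.797 for both.

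Complex II, succinate dehydrogenase, also belongs to the tricarboxylic acid cycle, and its 4 genes did not move alike. Sdhb, the iron-sulfur subunit (chromosome 4, 140961203 to 140979193), had the most negative log2 fold change of all tested members in Siglec-F high. It had 98.7, 303 and 209 normalized counts in Siglec-F high, 193, 328 and 163 in Siglec-F int, and 1544, 1883 and 1580 in naive libraries. The values were -3.17 ± 0.42 (adjusted p = 0.000812) and -2.93 ± 0.42 (adjusted p = 0.00147). Sdhc, a membrane anchor (chromosome 1, 171127165 to 171150603), had 128, 186 and 172 in Siglec-F high, 203, 245 and 190 in Siglec-F int, and 478, 547 and 582 in naive libraries. It too was lower in every library of both fractions, at -1.73 ± 0.29 (adjusted p = 0.00222) and -1.33 ± 0.29 (adjusted p = 0.00891). Sdhd, the other anchor, had 291, 119 and 160 in Siglec-F high, 89.1, 129 and 96.2 in Siglec-F int, and 311, 266 and 284 in naive libraries. Its Siglec-F high library 1 overlapped the naive range, and it was called in Siglec-F int (-1.46 ± 0.37, adjusted p = 0.0196) but not in Siglec-F high (-0.69 ± 0.37, adjusted p = 0.172). Sdha, the flavoprotein that oxidises succinate, had 827, 501 and 454 in Siglec-F high, 530, 577 and 518 in Siglec-F int, and 958, 406 and 725 in naive libraries. Its groups overlapped in both comparisons, and its values of -0.19 ± 0.36 (adjusted p = 0.695) and -0.28 ± 0.36 (adjusted p = 0.609) were not called.

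**Figure D3:**
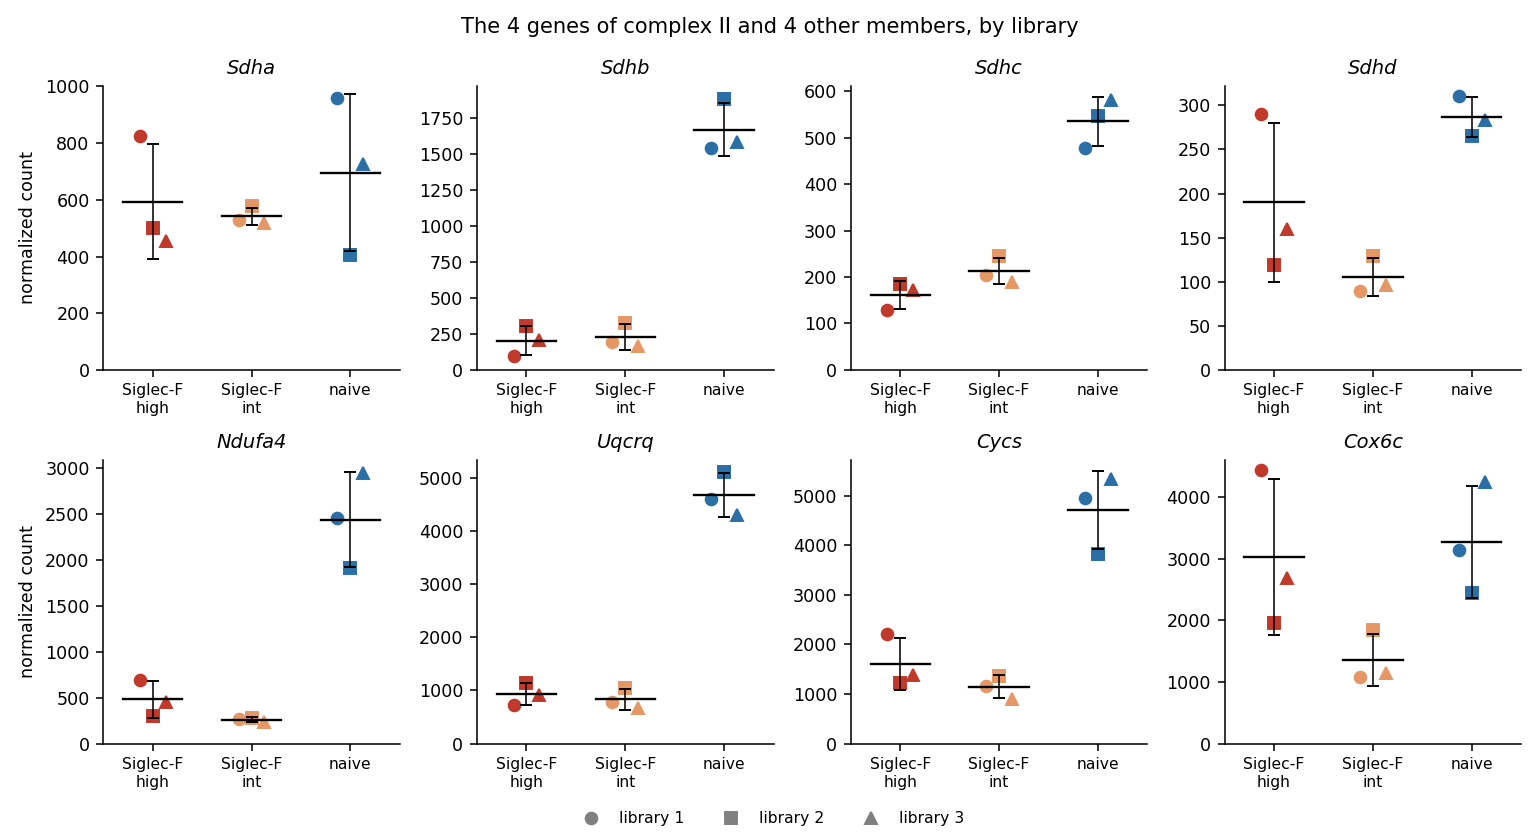
Normalized counts (y axis) of Sdha, Sdhb, Sdhc and Sdhd and of Ndufa4, Uqcrq, Cycs and Cox6c in the Siglec-F high, Siglec-F int and naive libraries (x axis, n = 3 each); points are libraries, long bars means and error bars SD. Sdhb, Sdhc, Ndufa4, Uqcrq and Cycs show the naive libraries apart from the rest, while the groups of Sdha overlap (406 to 958 in naive libraries).

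The sequence before the Sdhb start is shown because it has matches to 2 of the motifs known from promoters of respiratory genes. It is compared with that of Cycs, the gene of cytochrome c, which also fell in both fractions and shares a motif with it. Members with that motif that were called in neither fraction are among the shorter windows further below. Both are the 160 bases before the RefSeq transcript start (GRCm38.p6), 5′ to 3′ on the gene's strand, for Sdhb at chr4:140961111-140961270 on the plus strand and for Cycs at chr6:50566570-50566729 on the minus strand. Capitals mark matches on either strand to the core of the NRF-1 site (GCATGCGC) or to the GC box (GGGCGGG).
Sdhb: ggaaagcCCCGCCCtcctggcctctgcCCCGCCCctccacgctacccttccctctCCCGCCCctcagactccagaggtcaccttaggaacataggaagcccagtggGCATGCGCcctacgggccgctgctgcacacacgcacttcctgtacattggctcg
Cycs: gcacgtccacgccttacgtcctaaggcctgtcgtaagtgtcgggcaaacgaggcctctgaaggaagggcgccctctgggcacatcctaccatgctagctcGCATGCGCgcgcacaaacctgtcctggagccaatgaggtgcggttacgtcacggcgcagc
The NRF-1 core begins 54 bases before the RefSeq start in Sdhb and 60 bases before it in Cycs. The gene span given above for Sdhb, from GENCODE, begins at 140961203, which is within the stretch shown and before the core. A match describes these letters and is not a measured binding site.

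Complex III passes electrons from ubiquinol to cytochrome c. Of its 8 tested genes 5 fell in Siglec-F high and 6 in Siglec-F int. Uqcrq, a small subunit that contacts cytochrome b (chromosome 11, 53427922 to 53430831), had 729, 1150 and 913 normalized counts in Siglec-F high, 788, 1056 and 670 in Siglec-F int, and 4605, 5119 and 4294 in naive libraries. It had the smallest adjusted p of all members in Siglec-F high (-2.35 ± 0.28, adjusted p = 0.000465) and stood at -2.50 ± 0.28 in Siglec-F int (adjusted p = 0.0005). Uqcr10, another small subunit, fell in both (-1.65 and -2.43), and so did Uqcrfs1, the Rieske iron-sulfur protein (-1.31 and -1.30). Uqcrh, the hinge protein, and Uqcrc2, a core protein, had values of -0.58 (adjusted p = 0.104) and -0.61 (adjusted p = 0.081) in Siglec-F high, and both fell in Siglec-F int (-1.21 and -1.03). Cyc1, cytochrome c1, whose name lies outside the rule, had 75.7, 264 and 255 in Siglec-F high, 296, 341 and 265 in Siglec-F int, and 1320, 2105 and 1283 in naive libraries, and it fell in both (-3.14 ± 0.46, adjusted p = 0.00122, and -2.35 ± 0.46, adjusted p = 0.00584). Cycs, cytochrome c itself (chromosome 6, 50562563 to 50566538), had 2206, 1225 and 1377 in Siglec-F high, 1162, 1373 and 909 in Siglec-F int, and 4958, 3835 and 5346 in naive libraries. All values of both fractions lay below the naive ones, at -1.59 ± 0.30 (adjusted p = 0.00445) and -2.04 ± 0.30 (adjusted p = 0.00169).

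Complex IV reduces oxygen, and several of its nuclear subunits exist as isoforms used in different tissues or conditions. Of its 17 tested genes 8 fell in Siglec-F high and 10 in Siglec-F int. Cox5b, a zinc-binding subunit (chromosome 1, 36691449 to 36693681), had 815, 875 and 780 normalized counts in Siglec-F high, 536, 867 and 589 in Siglec-F int, and 3063, 3704 and 2961 in naive libraries (-1.97 ± 0.26, adjusted p = 0.000835, and -2.31 ± 0.26, adjusted p = 0.000609). Ndufa4 (chromosome 6, 11900292 to 11907497) had 695, 297 and 453 in Siglec-F high, 274, 278 and 235 in Siglec-F int, and 2457, 1912 and 2950 in naive libraries. Its value of -3.19 ± 0.34 in Siglec-F int (adjusted p = 0.00042) was the most negative of all tested members there, beside -2.40 ± 0.34 in Siglec-F high (adjusted p = 0.000998).

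The isoforms that most tissues use fell in at least 1 comparison. Cox4i1 averaged 520 ± 346 in Siglec-F high, 601 ± 207 in Siglec-F int and 1904 ± 560 in naive libraries, and was called in Siglec-F high (-2.19 ± 0.58, adjusted p = 0.018) but not in Siglec-F int (-1.68 ± 0.58, adjusted p = 0.0604). Cox6b1, Cox7a2 and Cox8a fell in both, with -1.65, -1.19 and -1.68 in Siglec-F high and -1.56, -1.90 and -1.33 in Siglec-F int. The calls in Siglec-F int of Cox8a (adjusted p = 0.0492) and Cox6b1 (adjusted p = 0.046) were lost in 16 and 15 of 24 alternatives, and that of Cox6b1 in Siglec-F high in 9 of 24. Cox6a1 fell as well (-1.08 in Siglec-F high, adjusted p = 0.0156, and -1.38 in Siglec-F int, adjusted p = 0.0064), but with GC and length effects taken out its values were 0.57 in Siglec-F high and -0.22 in Siglec-F int (adjusted p = 0.405 and 0.793). Of the isoforms known from muscle, lung, testis or hypoxic cells, Cox4i2 ranged from 1.1 to 10.7 in Siglec-F high, from 3.48 to 11.3 in Siglec-F int and from 14.9 to 49.5 in naive libraries. Cox7a1, Cox6a2 and Ndufa4l2 did not exceed 36.4 in Siglec-F high, 25.6 in Siglec-F int or 99.0 in naive libraries. Cox6b2, the testis form, was the only tested member with a value above 0 in both comparisons (1.27 ± 0.84, adjusted p = 0.261, and 1.15 ± 0.84, adjusted p = 0.352), with 34.0, 35.2 and 23.0 in Siglec-F high, 27.4, 53.5 and 14.2 in Siglec-F int, and 2.29, 23.5 and 25.9 in naive libraries. None of these 5 isoforms was called in either comparison. Cox8c was listed at 0 in every library, and Cox7b2 and Cox8b were at 0 in all but 1 and 2 libraries.

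Cox6c, a small subunit, had 4437, 1965 and 2694 normalized counts in Siglec-F high, 1084, 1839 and 1152 in Siglec-F int, and 3145, 2438 and 4248 in naive libraries. The Siglec-F high libraries overlapped the naive ones (-0.16 ± 0.36, adjusted p = 0.76), while all int libraries lay below both (-1.28 ± 0.36, adjusted p = 0.0302 against naive). The call in Siglec-F int was lost in 10 of 24 alternatives, TMM scaling and edgeR among them (adjusted p of up to 0.114 over all). In Siglec-F high against int Cox6c stood at 1.12 with an unadjusted p of 0.011, the smallest of the tested members, and adjusted p = 0.797. Cox7c and Cox7b were likewise called in Siglec-F int only (-1.42 and -1.29), with -0.71 (adjusted p = 0.0841) and -0.74 (adjusted p = 0.111) in Siglec-F high. Cox7a2l was called in neither (-0.82 and -0.64).

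ATP synthase had 12 of 17 tested genes lower in Siglec-F high and 11 lower in Siglec-F int. Atp5o, a subunit of the stalk that holds the catalytic head, had 133, 351 and 406 normalized counts in Siglec-F high, 291, 461 and 245 in Siglec-F int, and 1788, 2410 and 1868 in naive libraries. Its log2 fold change was -2.91 ± 0.43 in Siglec-F high (adjusted p = 0.00126) and -2.64 ± 0.43 in Siglec-F int (adjusted p = 0.00246), and no library of either fraction reached a naive one. Atp5c1, the central shaft, had 2886, 3129 and 3306 in Siglec-F high, 2309, 3363 and 2169 in Siglec-F int, and 7377, 9477 and 8856 in naive libraries, and fell in both (-1.46 and -1.73). Atp5g1, Atp5g2 and Atp5g3 encode the same mature ring protein with different import signals, so reads of their shared parts may be split or lost in counting. Atp5g1 fell in both (-1.96 and -1.65), and so did Atp5g3 (-1.36 and -1.98). Atp5g2 fell in Siglec-F high (-2.39 ± 0.82, adjusted p = 0.0472) but was not called in Siglec-F int (-1.38 ± 0.82, adjusted p = 0.247). The call in Siglec-F high was lost in 17 of 24 alternatives, edgeR and DESeq2 among them (adjusted p of 0.0124 to 0.204 over all). Of genes not called in Siglec-F high, Atp5l had -0.20 ± 0.28 (adjusted p = 0.594) there and -0.85 ± 0.28 (adjusted p = 0.0504) in Siglec-F int, and Atp5j had -0.85 ± 0.30 (adjusted p = 0.0528) there and fell in Siglec-F int (-1.19). Both encode subunits of the stator or membrane part.

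Siglec-F high library 1 stood apart from the other Siglec-F high libraries, and many members turn on it. Over the 82 tested members the log2 ratio of this library to the mean of libraries 2 and 3, on value + 1, had a median of -0.18 and ran from -4.27 to 1.5. In 24 members it held under 0.5 of that mean, in 39 between 0.5 and 1.5 times, and in 19 over 1.5 times. The 24 had a median transcript GC content of 53.7%, the 39 of 50.2% and the 19 of 47.5%, and across members the ratio had r = -0.44 and rho = -0.48 with GC content (n = 82 genes of the same libraries, given as a description). Over all 13639 genes with an annotation, the deviation from the group mean had r with GC content of -0.47, 0.51 and 0.21 in Siglec-F high libraries 1, 2 and 3, and between -0.11 and 0.08 in the other 6. At one end, Atp5g2 had 235, 3973 and 2673 normalized counts in the Siglec-F high libraries and Ndufv1, the NADH-binding flavoprotein of complex I, had 12.1, 248 and 255. At the other end, Ndufa6 had 1583, 521 and 594 and Atp5k 921, 267 and 399. Ndufv1, Ndufa6 and Atp5k were chosen after their values were seen.

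The classes were set by Siglec-F high library 1, which also enters the fold changes in Siglec-F high, so those are not compared between classes. In Siglec-F int, whose fold changes do not use this library, the medians of the 24, the 39 and the 19 were -1.60, -1.52 and -1.27. The calls there, 10 of the 24, 34 of the 39 and 12 of the 19, do depend on it through the shared spread. They are therefore not compared between classes either. Without Siglec-F high library 1, 61 members fell in Siglec-F high against naive, all of the 53 among them. The 8 added were Sdhd, Ndufa12, Ndufc2, Ndufb3, Uqcrc2, Cox7b, Cox7c and Atp5j. In Siglec-F int against naive 71 fell when this library no longer entered the shared estimate of the spread. Over all genes the falls there went from 1402 to 2760.

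**Figure D4:**
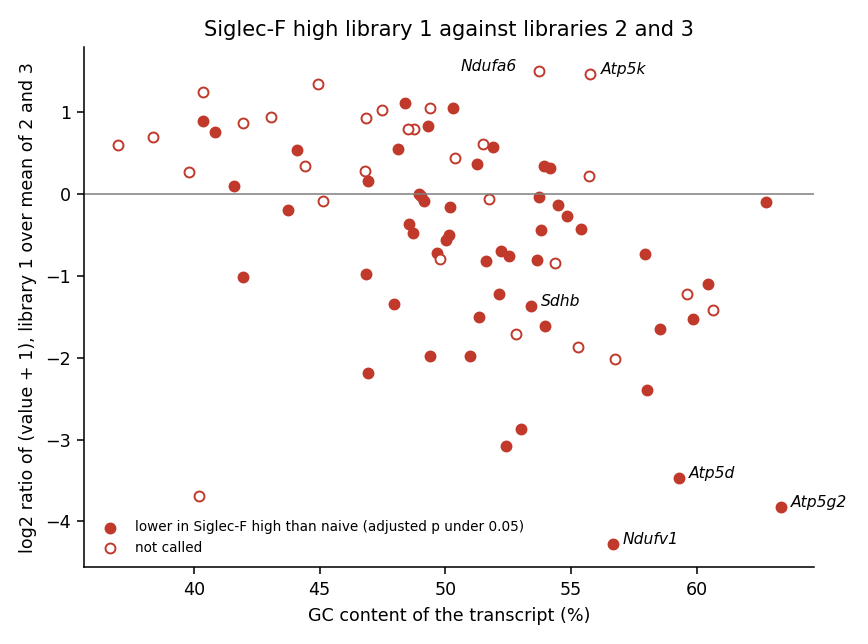
Log2 ratio of Siglec-F high library 1 to the mean of Siglec-F high libraries 2 and 3, on value + 1 (y axis), against transcript GC content in percent (x axis) for the 82 tested members; filled points fell in Siglec-F high against naive and open points were not called. Ratios run from -4.27 to 1.5, with Ndufv1, Atp5d and Atp5g2 at the low end and Ndufa6 and Atp5k at the high end, and r is -0.44.

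No member was called between Siglec-F high and Siglec-F int. limma called 0 of 82, and 0% of all 13642 genes (591 at an unadjusted p under 0.05, where DESeq2 called 6 and edgeR 0), and 12 members had an unadjusted p under 0.05, all higher in Siglec-F high. edgeR and DESeq2 called 0 members as well, with 7 and 15 at an unadjusted p under 0.05. The median log2 fold change was 0.22, beside -0.08 over all genes tested, and 28 of 82 members lay below 0. In 14 members all Siglec-F high libraries lay above all int libraries (5.52% of all genes), among them Cox6c, Uqcrh and Uqcr10, and in 2, Ndufa9 and Sdhc, they all lay below (5.75% of all genes). Without Siglec-F high library 1 the median was 0.27 and 10 members lay below 0. Without it and Siglec-F int library 2, the int library with the highest sums, they were 0.48 and 5, and still no member was called. Leaving out the int library with the highest sums lowers the int means by the choice itself, so this shift is no separate result. By group mean, 52 of 82 members ran from naive over Siglec-F high to Siglec-F int in falling order, 25 had Siglec-F int between naive and Siglec-F high, 4 were highest in Siglec-F high and 1 (Cox6b2) was lowest in naive libraries.

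The 13 protein genes of the mitochondrial genome, which supply the other subunits of complexes I, III, IV and V, showed no called change. limma called 0 of 13 in each comparison (at an unadjusted p under 0.05, 0 in Siglec-F high over naive, 2 in Siglec-F int over naive and 1 between the fractions), and edgeR and DESeq2 called 0. Their summed normalized counts were 1509387, 540272 and 725260 in Siglec-F high, 620104, 647864 and 512642 in Siglec-F int, and 893740, 837845 and 416389 in naive libraries, so that the groups overlapped. The median of their log2 fold changes was 0.20 in Siglec-F high and -0.29 in Siglec-F int, but that of Siglec-F high was -0.25 without Siglec-F high library 1, -0.09 without naive library 3 and -0.91 with GC and length effects taken out, which gave -0.96 in Siglec-F int. The ratio of the mitochondrial sum to the nuclear sum within a library, which no scaling of libraries can change, was 25.1, 8.76 and 12.0 in Siglec-F high, 13.6, 10.4 and 12.3 in Siglec-F int, and 6.75, 5.73 and 2.78 in naive libraries. It was thus higher in each of the 6 libraries from injected mice than in each naive library. A GC or length effect within a library can change this ratio, which was not computed again with that trend removed. Under that removal the median log2 fold changes of the mitochondrial genes were -0.91 in Siglec-F high and -0.96 in Siglec-F int. Those of the nuclear members were -0.88 and -1.05, so the 2 sets then stood close together. An unequal change of the 2 sums does not say which of them changed.

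**Figure D5:**
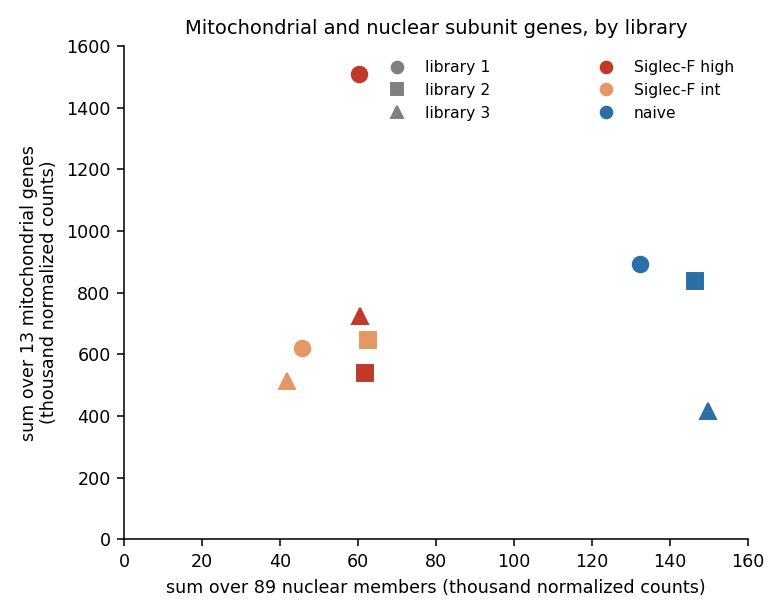
Sum over the 13 mitochondrial protein genes (y axis) against the sum over the 89 nuclear members (x axis), both in units of 1000 normalized counts, with 1 point per library of the Siglec-F high, Siglec-F int and naive groups. The nuclear sums of the naive libraries lie to the right of all others, while the mitochondrial sums overlap between groups and Siglec-F high library 1 is the highest.

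Genes that help to build or supply the chain were counted in the same way, by limma, beside the 16.6% of all genes that fell in Siglec-F high and the 10.3% that fell in Siglec-F int. The calls were mostly falls, and those that rose by limma were Cox20, Gpd2 and Gabpb2, all in Siglec-F high. edgeR or DESeq2 called further rises, at most 1 more gene a list in a comparison, among factors of complexes II and III, carriers, regulators and electron donors. Of 7 tested subunits outside the name rule 4 fell in Siglec-F high and 5 in Siglec-F int, led by Higd1a, a small partner of complex IV (-2.05 and -2.33), and Cyc1. Assembly factors of complex I fell in 7 of 17 genes in Siglec-F high and 3 of 17 in Siglec-F int, for example Ndufaf6 (-2.06 and -1.80). Of 4 factors of complex II 1 fell in each, Sdhaf1, which helps to mature Sdhb (-2.35 and -1.89). Of 5 factors of complex III 3 fell in each, for example Uqcc1 (-1.32 in both). Of 18 factors of complex IV 8 fell and 1 rose in Siglec-F high and 3 fell in Siglec-F int, and those of complex V fell in 2 and 1 of 5. In Siglec-F int the counts for complexes I, IV and V lie within 2 genes of the share over all genes. The 1 that rose was Cox20, a chaperone of the mitochondrial Cox2 protein, with 531, 166 and 197 normalized counts in Siglec-F high, 137, 131 and 90.5 in Siglec-F int, and 114, 72.9 and 105 in naive libraries (1.43 ± 0.46, adjusted p = 0.0374, in Siglec-F high), where library 1 was again the highest. Cox14, which binds newly made Cox1, fell in both (-1.64 and -1.94).

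Carriers and pores that exchange ADP, ATP, phosphate and metabolites fell in 4 of 7 genes in Siglec-F high and 5 of 7 in Siglec-F int. Vdac1, the main pore of the outer membrane, had 296, 842 and 842 normalized counts in Siglec-F high, 713, 712 and 712 in Siglec-F int, and 3341, 3019 and 2989 in naive libraries (-2.39 ± 0.38, adjusted p = 0.00183, and -2.13 ± 0.38, adjusted p = 0.0039). Slc25a5, an ADP/ATP carrier, fell in both (-1.29 and -1.49). Of 21 tested genes of the protein import machinery 13 fell in Siglec-F high and 12 in Siglec-F int, among them Tomm40, the outer membrane channel (-2.22 and -1.25), and Timm22, an inner membrane translocase (-1.95 and -1.89). Of 8 other electron donors to the chain 2 fell in each comparison, Prodh and Etfb, and Gpd2, the mitochondrial glycerol phosphate dehydrogenase, rose in Siglec-F high (1.37 ± 0.41, adjusted p = 0.0303) with 1.24 in Siglec-F int (adjusted p = 0.0538).

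Of 22 tested regulators of mitochondrial biogenesis, 1 rose and 2 fell in Siglec-F high, and 2 fell in Siglec-F int, which is no more than the shares over all genes. Ppargc1a, the PGC-1alpha coactivator of respiratory genes, had 2.19, 0 and 5.12 normalized counts in Siglec-F high, 0.54, 1.26 and 2.53 in Siglec-F int, and 133, 185 and 205 in naive libraries. All 6 libraries from injected mice were near 0 and all naive ones above 130, at -6.00 ± 0.79 (adjusted p = 0.000778) and -6.22 ± 0.79 (adjusted p = 0.000883). The pigment cell markers given above separate the same libraries, and their part in this difference was not tested. Esrra, a nuclear receptor that works with PGC-1alpha, fell in Siglec-F high (-1.89 ± 0.59, adjusted p = 0.0343) with -1.07 in Siglec-F int (adjusted p = 0.215). Gabpb2, a subunit of the ETS-type factor GABP, rose in Siglec-F high (1.67 ± 0.53, adjusted p = 0.0358) with 1.57 in Siglec-F int (adjusted p = 0.0552). Tefm, the mitochondrial transcription elongation factor, fell in Siglec-F int (-1.73 ± 0.55, adjusted p = 0.0459) with -1.28 in Siglec-F high (adjusted p = 0.0975). Nrf1, whose protein binds the NRF-1 site, was called in neither (-0.99, adjusted p = 0.0732, and -0.73, adjusted p = 0.199).

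Promoters from RefSeq (GRCm38.p6, 250 bases before to 50 after the start) were matched by symbol or synonym for 67 of the 82 tested members. Both strands were searched for 4 motifs known from respiratory gene promoters. The NRF-1 core (GCATGCGC) was found in a promoter of 16.4% of these members, against 3.05% of all 27025 genes in the table. The ETS core (CCGGAAG) was found in 23.9% against 9.93%, the YY1 core (ATGGCGG) in 14.9% against 4.69%, and the GC box (GGGCGGG) in 34.3% against 27.9%. The 27025 genes were not limited to genes tested, as the members were, so these shares compare unlike sets. The 11 members with an NRF-1 core are shown with 10 bases on either side, 5′ to 3′ on the gene's strand, so that the shared core (capitals) and its differing surroundings can be read.
Sdhb, chr4:140961207-140961234, plus strand: agcccagtggGCATGCGCcctacgggcc
Cycs, chr6:50566612-50566639, minus strand: atgctagctcGCATGCGCgcgcacaaac
Ndufa11, chr17:56717694-56717721, plus strand: tgcactgcgcGCATGCGCgcacgccttg
Ndufa6, chr15:82354357-82354384, minus strand: ccgcggtagaGCATGCGCattgcagagc
Ndufa8, chr2:36049329-36049356, minus strand: cgctggagacGCATGCGCagatggtacc
Uqcr11, chr10:80406808-80406835, minus strand: tcgccttcacGCATGCGCtatacgtctg
Uqcrc1, chr9:108936670-108936697, plus strand: tccgctctgcGCATGCGCagcgcggctc
Cox6a1, chr5:115349101-115349128, minus strand: ggaacggggcGCATGCGCgctctcgctc
Atp5g2, chr15:102671070-102671097, minus strand: ctccggccgcGCATGCGCagagccttcc
Atp5k, chr5:108434430-108434457, minus strand: tcactgcggcGCATGCGCctttctggct
Atp5l, chr9:44920965-44920992, minus strand: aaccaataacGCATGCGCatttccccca
In 5 of them a second match on the other strand overlaps the one shown. Members with the core did not all fall: 7 of the 11 did in Siglec-F high and 6 in Siglec-F int, beside 39 and 42 of the 56 matched members without it. Sdhb and Cycs fell in both, while Ndufa6, Atp5k and Atp5l, whose windows hold the same letters, were called in neither. For the ETS core the counts were 11 and 14 of 16 members with a match, beside 35 and 34 of 51 without.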

How the data were processed

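The deposited signal values are normalized counts: per gene, reads over 1 size factor per library, to 2 decimals. TopHat2 2.1.0, HTSeq, DESeq2 1.10.0 and GRCm38 are named, without roles, by the submitters' processing notes. Per the labels, cells were sorted to over 98% purity, RNA integrity was above 6.3 and libraries followed Cell-seq protocols. Whether strand or molecular identifiers were used is not given in the sources used here. Each library moves in a fixed step, and division by it returned whole numbers for 100% of values up to 2000 reads (tolerance 0.05 read), which gave the depth. Of 54670 entries, 63 with a name turned into a date (0.219% of the total), 116 exact duplicates and 42 repeats were left out. GENCODE M21 matched 99.9% of genes.

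Members and gene lists were chosen with earlier results of these data known. The 13642 genes with a mean of at least 5 were tested by limma 3.58.1 under R 4.3.3, using log2(value + 1), all 9 libraries together and a variance trend, with two-sided p-values adjusted by Benjamini-Hochberg over all genes tested, at 0.05. Fold changes are on that scale, which understates the change of low genes. P-values measure the spread between pools of mice. The text names, per complex, the 3 called members with the smallest adjusted p and 2 uncalled ones with the highest mean in Siglec-F high against naive, complex II, Cycs, listed isoforms, and up to 2 called genes per context list; other members it names were chosen after their values were seen. Alternatives were other pseudocounts, filters and scalings, a 6-library fit, a replicate block, removal of the GC and length trend (loess span 0.3), edgeR 4.0.16 and DESeq2 1.42.0 on recovered reads, and left-out libraries. The procedure was run on simulated counts with known changes in Siglec-F high only. Those counts held the same spread for every gene, no GC trend and no outlying library, so the run does not bear on these. Wilson intervals used scipy 1.17.1. The values of 1 of the members selected by the naming rule are not reported here.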

Additional observations from a re-analysis of the deposited data

How the results depend on the processing

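In both comparisons with naive the median log2 fold change of the members stayed below 0 under every alternative tried, and in 21 members in Siglec-F high and 25 in Siglec-F int the fall was called under all of them. With the GC and length trend removed, and also with the replicate block added to that removal, 34 members fell in Siglec-F high against naive instead of 53, and without the block 1 member, Cox6b2, was called higher. Leaving out 1 library gave 34 (without naive library 3) to 61 (without Siglec-F high library 1) in Siglec-F high, and 36 (without int library 3) to 71 (without Siglec-F high library 1) in Siglec-F int, where 56 fell in the full data. Over all genes tested the falls in these settings were 1341 and 2237 in Siglec-F high, beside 2267 in the full data. In Siglec-F int they were 650 and 2760, beside 1402. With the replicate block alone 53 and 60 members fell, and 0 were called between the fractions. The block grouped naive libraries by number as well, so it is no test of pairing of the fractions. Same-numbered Siglec-F high and int libraries had correlated deviations of 0.12, 0.14 and 0.07, each the highest for its library across these fractions. With naive libraries the same-number values were -0.03 to 0.06, but those came from other mice and do not bear on pairing of the fractions. Whether same-numbered fractions came from the same pools was not tested, and the main fit took them as unpaired. edgeR called 40 and 50 members lower and DESeq2 50 and 60. Equal totals moved the median of all genes by 0.13 and 0.25, and relative to that median the members stood at -1.25 and -1.47, against -1.26 and -1.49 as deposited, while with the GC and length trend removed they stood at -0.84 and -0.97.

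Signs turned for 8 named members. In Siglec-F high against naive, removal of the GC and length trend, with or without the replicate block, gave 0.573 for Cox6a1, 0.0916 for Ndufa12, 0.443 for Ndufa4l2 and 0.610 for Ndufs7, and in Siglec-F int against naive it gave 0.0852 for Cox6a2. Equal totals without mitochondrial genes gave 0.0118 for Atp5l, 0.0558 for Cox6c and 0.0177 for Sdha, and quantile normalization gave 0.0686, 0.0868 and 0.0353. Cox6c also stood at 0.0166 with TMM scaling, 0.0433 with edgeR and 0.0170 with DESeq2, and ran from -0.473 to 0.114 when 1 library was left out, as Sdha did from -0.540 to 0.0777. The cause was not tested. Pools of 3 to 4 mice, 3 per group, limit the precision of single genes, and naive library 2 had the fewest reads.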
